A study of Mus musculus with 12 samples.

Results

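The nuclear-encoded genes of the respiratory chain and of the mitochondrial ribosome were followed across cultures of primary mouse melanocytes that differed in the transcription factor ATF2, in 4-hydroxytamoxifen (4-OHT) and in oxygen. A probe was taken as a member when the gene number in its name belonged to a protein-coding RefSeq gene whose symbol starts with Nduf, Sdha to Sdhd, Uqcr, Cox and a digit, Atp5, Mrpl or Mrps. This gave 106 probes of 92 genes among 46628 probes on the array, of which 9796 could be tied to a RefSeq gene in this way. RefSeq lists 187 genes of these names, and the others were not analysed here. Of the 106 probes, 91 (85 genes) were detected on at least 1 array and were tested with all 14900 kept probes, and 84 were detected on all 12 arrays. The other 15, among them the probe of Sdha, the flavoprotein of complex II, were detected on none.

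Complexes I to IV of the inner mitochondrial membrane pass electrons from NADH and succinate to oxygen. All but complex II pump protons, and the ATP synthase uses the proton gradient to make ATP. Most subunits are encoded in the nucleus and imported, whereas a core set is encoded by mitochondrial DNA and translated by a separate ribosome, whose proteins also come from nuclear genes. Under low oxygen, the factor HIF-1 is known in mammalian cells to switch on glycolysis and to exchange or repress some respiratory chain parts.

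Each of 6 groups held 2 Illumina Mouse-6 BeadChip arrays, and the arrays of replicate 1 lay on one slide and those of replicate 2 on another. The groups were ATF2 mutant (ATF2-/-) cultures given 4-OHT, in hypoxia and in normoxia, ATF2 mutant cultures not given it, in hypoxia and in normoxia, and WT cultures not given it, in hypoxia and in normoxia. Hypoxia was 1% O2, and cells were held in hypoxia or normoxia for 12 h before RNA isolation. All cultures were of mixed FVB/129/OlaHsd/C57Bl/6 strain and received doxycycline, and by the study's methods all carried an inducible Nras Q61K transgene, an Ink4a-/- background and a 4-OHT-inducible Cre driven by the tyrosinase promoter. Cre is meant to delete the stretch of Atf2 that encodes its contact with DNA, yet the labels also give the mutant cultures without 4-OHT as ATF2-/-, and no WT culture with 4-OHT was analysed here. The sources do not say which pairs of arrays came from separate cultures, so p-values measure the spread between arrays, which may be technical, and in cultures a change per cell and a change in the cells present cannot be told apart.

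Several facts of the series bear on all values. The Atf2 probe was detected on 0 of 12 arrays, so it did not check the labels. Xist was detected on 8 of the 8 arrays labelled mutant and 0 of the 4 labelled WT. Eif2s3y, a Y-linked gene, was detected on 0 of the 8 labelled mutant and 4 of the 4 labelled WT, so genotype and sex cannot be told apart. All 4 melanocyte marker genes with a probe were detected on every array, and 0 of 4 myeloid marker genes on any. Of 6 skeletal muscle marker genes with a probe, all 6 were detected on each array of the mutant with 4-OHT and of the normoxic mutant without it, against 1 or 2 on the arrays of the hypoxic mutant without 4-OHT and of WT. Keratinocyte markers were detected for 1 or 2 of 4 genes, fibroblast markers for 1 to 3 of 8, and endothelial markers for 0 to 2 of 3.

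One array stood apart in these genes. Each probe's normalized log2 intensity was set against its own mean over the 12 arrays. On replicate 1 of the normoxic mutant with 4-OHT the median of the 91 member probes was -0.85, whereas on the other 11 arrays it lay between -0.01 and 0.18. The median of all 14900 kept probes lay between -0.03 and 0.03 on every array. On that array 82 of the 91 probes were under their own mean, and 67 of the 91 (73.6%) had their lowest value of the 12 arrays, against 16.3% of all kept probes.

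**Figure D1:**
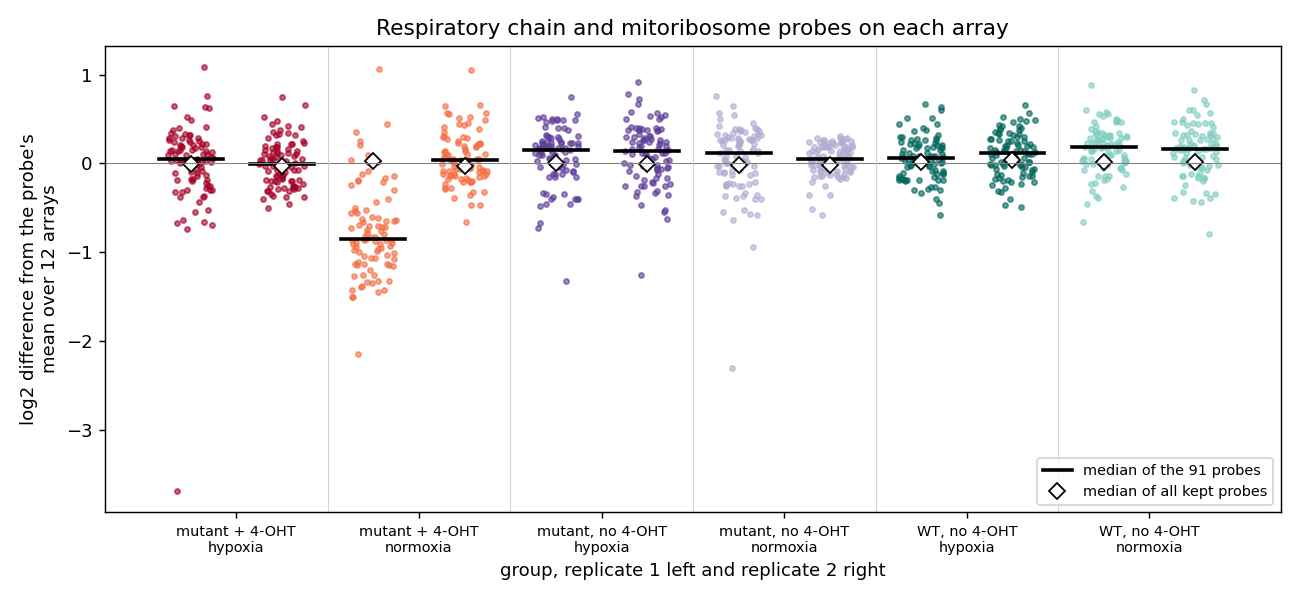
Each point is one of the 91 member probes, as the log2 difference of its normalized intensity from its own mean over the 12 arrays (vertical axis), for each array (horizontal axis, by group). Bars are member medians and diamonds the median of all 14900 kept probes. Replicate 1 of the normoxic mutant with 4-OHT has a member median of -0.85, and all other arrays lie between -0.01 and 0.18.

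The low values ran through every role. On that array the median was -0.97 for 20 probes of complex I (NADH dehydrogenase), -0.42 for 2 of complex II (succinate dehydrogenase), -0.90 for 4 of complex III (cytochrome bc1) and -0.91 for 12 of complex IV (cytochrome c oxidase). It was -0.63 for 9 probes of the ATP synthase, -0.68 for 10 of assembly factors, -0.79 for 19 of the large and -0.72 for 15 of the small mitoribosomal subunit. All 20 complex I probes were under their own mean there. The lowest was Ndufs4, a subunit of complex I, whose brighter probe read 7.76 on replicate 1 against 10.19 on replicate 2 of the same group. The opposite extreme was Cox15, which makes the haem A of complex IV, at 9.42 on replicate 1 and 7.89 on replicate 2, the only member whose highest value lay on that array.

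Other gene groups did not all share it. On that array the median of 70 probes of cytosolic ribosomal proteins was -0.58 (0.01 to 0.25 on the others) and that of 14 proteasome probes -0.52 (-0.16 to 0.25). These groups were added after the values were seen. In contrast, 7 citric acid cycle probes stood at 0.16, within their range on the other arrays (-0.31 to 0.28), and 28 probes of mitochondrial biogenesis and assembly at -0.09 (-0.12 to 0.28). Whether this array reflects its cells, its RNA or its hybridization was not tested.

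**Figure D2:**
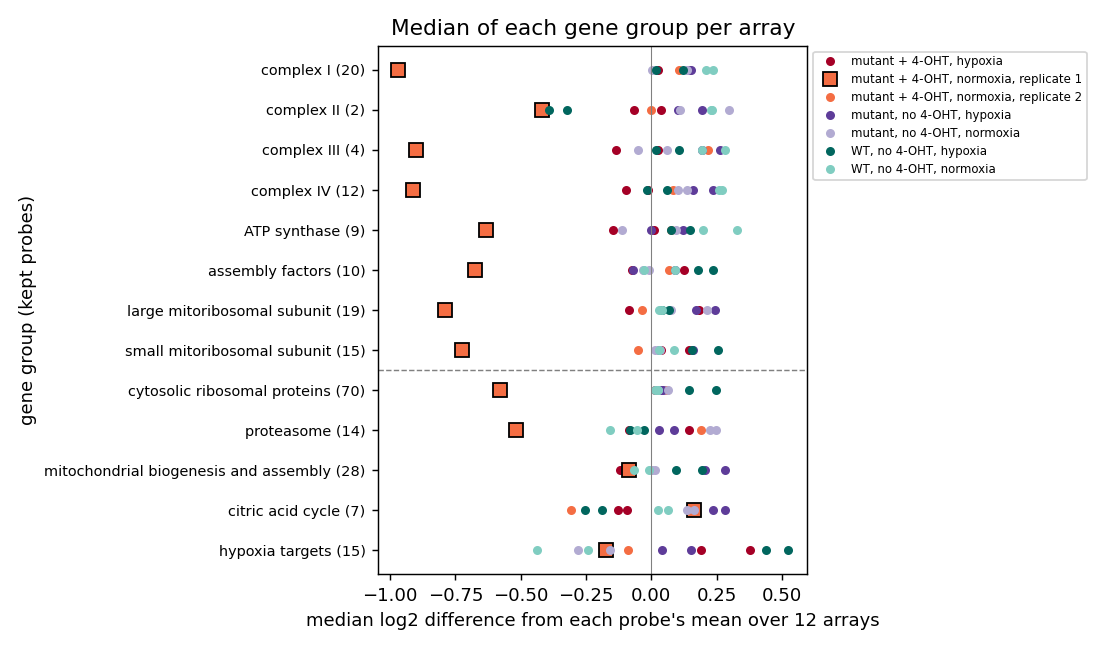
Median log2 difference from each probe's mean over 12 arrays (horizontal axis) for gene groups (vertical axis, number of kept probes in brackets), one point per array coloured by group. Member roles are above the dashed line. The outlined square, replicate 1 of the normoxic mutant with 4-OHT, lies lowest in all 8 roles, at -0.97 for complex I, but within the range of other arrays for the citric acid cycle at 0.16.

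The arrays of the other groups were closer. The 2 arrays of the normoxic mutant with 4-OHT differed by at least 2-fold at 39 of the 91 member probes (42.9%, against 8.48% of all kept probes). In the 5 other groups this was so for 0 to 3 members. A single array dropped out for 2 genes: Mrps18c, of the small mitoribosomal subunit, read 4.51 on replicate 1 and 8.41 on replicate 2 of the hypoxic mutant with 4-OHT, and Ndufb9, of complex I, read 5.12 and 7.65 on those replicates of the normoxic mutant without 4-OHT. Each comparison below was therefore also made without the array that stood apart.

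Promoters of the members were looked at for sequence they share, using RefSeq windows (GRCm38.p6) of 250 bases before and 50 after a gene's start, and both strands. Of 87 windows of 82 member genes, 32 (36.8%) held CCGGAAG, a site of the ETS factors that include GABP, against 8.86% of all 32851 windows. The site of NRF1, which with GABP is known to drive mammalian respiratory genes, stood in 7 member windows (8.05%), against 0.971%. The core of the hypoxia response element appeared as ACGTG in 20.7% of member windows against 19.6% of all, and as GCGTG in 55.2% against 32.4%. All windows served as the background, without matching for base composition, so an excess over them cannot be tied to the roles of these genes. A match is a description of these letters and no evidence of binding.

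The 250 bases before the start are shown for the 2 members that passed the test for hypoxia over all cultures, Ndufaf4 (chr4:24897833-24898082, plus strand) and Mrpl51 (chr6:125191950-125192199, plus strand), and for Cox7a2l, which had the largest differences among members that passed (chr17:83514334-83514583, minus strand). Capitals mark the NRF1 site in the first and CCGGAAG in the second; the third holds none of the sites searched.
Ndufaf4: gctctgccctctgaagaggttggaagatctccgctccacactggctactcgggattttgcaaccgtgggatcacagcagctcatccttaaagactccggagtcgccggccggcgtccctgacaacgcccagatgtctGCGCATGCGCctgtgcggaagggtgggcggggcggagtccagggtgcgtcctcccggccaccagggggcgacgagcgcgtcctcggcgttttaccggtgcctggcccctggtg
Mrpl51: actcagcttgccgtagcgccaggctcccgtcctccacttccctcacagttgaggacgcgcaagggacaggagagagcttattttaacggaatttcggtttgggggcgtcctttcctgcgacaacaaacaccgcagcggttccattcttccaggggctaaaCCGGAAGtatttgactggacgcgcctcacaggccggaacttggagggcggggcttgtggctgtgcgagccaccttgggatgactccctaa
Cox7a2l: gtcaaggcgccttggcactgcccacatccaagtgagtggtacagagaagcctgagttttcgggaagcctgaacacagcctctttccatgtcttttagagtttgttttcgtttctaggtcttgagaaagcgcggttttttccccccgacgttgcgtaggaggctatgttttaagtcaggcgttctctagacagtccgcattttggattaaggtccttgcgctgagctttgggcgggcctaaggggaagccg

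Hypoxia was first averaged over the 3 kinds of culture, 6 hypoxic against 6 normoxic arrays. Few members changed: 2 of 91 rose and 0 fell (2.20%), whereas 9.82% of all kept probes passed the same threshold, a Benjamini-Hochberg adjusted p under 0.05 from limma. The median member difference was 0.12, against 0.01 for all probes, but it was 0.25 within slide 1 and -0.02 within slide 2. Without the array that stood apart it was -0.01, and 2 members rose and 2 fell (13.1% of all probes passed). Leaving out that array's partner instead gave 34 members higher and 1 lower, with 22.4% of all probes called. Leaving out any of the other 10 arrays gave 0 to 3 member calls, and 4.6% to 10.4% of all probes.

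Both members that rose over all cultures are named here. Ndufaf4, an assembly factor of complex I, read 8.05 and 7.50 in the hypoxic mutant with 4-OHT, 8.52 and 8.30 in the hypoxic mutant without it and 7.96 and 8.08 in hypoxic WT. In normoxia it read 7.17 and 7.58 in the mutant with 4-OHT, 7.68 and 7.83 in the mutant without it and 7.32 and 7.34 in WT. The log2 difference was 0.58 ± 0.12 (SE, limma adjusted p = 0.0149) and 0.51 without the array that stood apart (adjusted p = 0.0192), and hypoxic and normoxic arrays overlapped within the mutant with 4-OHT but not within the other cultures. Leaving out 1 of the 12 arrays kept the call in 8 of 12 cases.

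The other, Mrpl51 of the large mitoribosomal subunit, did so at the dimmer of its 2 probes. That probe was detected on 6 of 6 hypoxic and 1 of 6 normoxic arrays, at a mean of 5.74 ± 0.20 in hypoxia and 4.99 ± 0.43 in normoxia (SD, n = 6 each), with a difference of 0.75 ± 0.17 (SE, limma adjusted p = 0.020). The brighter probe, detected everywhere, gave 0.23 and did not pass, and the 2 probes correlated at r = 0.24 over the 12 arrays, so the gene's probes disagreed. The call was lost when all detection p-values entered the background estimate and when dim probes were not filtered. The detection filter kept the dimmer probe mostly through hypoxic arrays, where it was high, so its p-value is not independent of its selection.

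Of isoforms known for hypoxia or for one tissue, Ndufa4, placed here with complex I by its symbol although it is now counted with complex IV, had a difference of 0.56 ± 0.23 (SE) and did not pass (limma adjusted p = 0.152). Without the array that stood apart, where it read 10.24 against 11.91 on its partner, the difference was 0.28. Cox6a1, Cox6b1 and Cox8a, the isoforms of most tissues, did not pass either. Cox7a1, the isoform of heart and skeletal muscle, was detected on 2 of 12 arrays only, both of normoxic WT (5.48 and 5.44, against 4.99 and 4.94 in hypoxic WT). Ndufa4l2, Cox4i1, Cox4i2 and Cox6a2 were not analysed here.

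Known hypoxia targets were set beside the members. Of 15 kept probes 8 rose and 0 fell over all cultures, with Ldha (lactate dehydrogenase) at 1.03 and Tpi1 (triosephosphate isomerase) at 1.05 (limma adjusted p = 0.000111 and 0.000455). By culture, 7 rose and 0 fell in WT (10.2% of all probes passed), and 4 rose and 1 fell in the mutant without 4-OHT (12.3%). In the mutant with 4-OHT 0 passed, where only 0.0268% of all probes did. The median difference of the 15 probes was 0.89 in WT, 0.36 in the mutant without 4-OHT and 0.37 in the mutant with it. The probe that fell was that of Egln3, an oxygen-sensing prolyl hydroxylase that is itself a hypoxia target. Its difference was -1.90 in the mutant without 4-OHT (limma adjusted p = 3.82e-05) and 1.93 in WT. In normoxia Egln3 already stood above WT, by 2.97 in the mutant without 4-OHT and 2.94 in the mutant with it. In hypoxia it differed from WT by 1.81 in the mutant with 4-OHT and by -0.86 in the mutant without it. The groups above WT were those in which all 6 muscle marker genes were detected on each array. The reason was not tested. Of 28 probes for mitochondrial biogenesis and assembly, 4 rose and 0 fell over all cultures, against 9.82% of all probes: the chaperonin Hspd1 (0.74), cytochrome c (Cycs, 0.56), the mitochondrial DNA-binding Ssbp1 (0.45) and the ADP/ATP carrier Slc25a5 (0.41). None of 7 citric acid cycle probes passed.

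In WT, hypoxia lowered 3 members and raised 1 of 91 (4.40%, against 10.2% of all probes). Uqcrc1, a core subunit of complex III, read 10.51 and 10.49 in hypoxia, against 11.12 and 11.23 in normoxia, a difference of -0.68 ± 0.15 (SE, limma adjusted p = 0.0213). Sdhb, the iron-sulphur subunit of complex II, read 9.39 and 9.57 in hypoxia, against 10.29 and 10.11 in normoxia (-0.72 ± 0.20, adjusted p = 0.0495). Mrps11, of the small mitoribosomal subunit, read 7.83 and 7.98, against 8.58 and 8.83 (-0.81 ± 0.19, adjusted p = 0.028). In all 3 the groups did not overlap. Under 8 processing alternatives the call of Uqcrc1 held in 8, that of Mrps11 in 7 and that of Sdhb in 4. The authors' normalized values were among those under which Sdhb lost its call.

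Sdhc, a membrane anchor of complex II, went the same way by its values, at 10.77 and 10.73 in hypoxia and 11.12 and 11.29 in normoxia, without passing (-0.45, limma adjusted p = 0.112). The dim probe of Mrpl51 was detected on both hypoxic and neither normoxic WT array. In the processing used here it was at least 2.01-fold higher in hypoxia (limma adjusted p = 0.0407). The bound sets the normoxic arrays at the weakest signal that counted as detected. Under 8 processing alternatives the probe's log2 difference ranged from 0.11 to 1.31, and its call held in 4. Its p-value is not independent of the detection filter, which kept the probe mostly through hypoxic arrays. The median over the 91 members was -0.10, near 0.00 for all probes, and 56 were below 0.

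The count in WT depended on the spread assumed. Without the array that stood apart, which is in neither group but adds to the spread shared by all groups, 5 members rose and 9 fell (18.7% of all probes passed), with Ndufb8, Ndufa11 and Ndufb3 of complex I and Uqcr11 of complex III among those lower. Fitting the 2 groups alone called 24, with 34.9% of all probes. Leaving out any 1 of the 4 WT arrays called 0 members and 0.805% to 2.57% of all probes.

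In the mutant without 4-OHT, hypoxia changed 1 member: Cox7a2l fell by 1.75 on the log2 scale (limma adjusted p = 0.000525), and it is taken up below. Of all probes 12.3% passed. Ndufaf4 had a difference of 0.66 (adjusted p = 0.072), and Uqcrc1, Sdhb and Mrps11 lay at 0.10, 0.10 and 0.14. With the array that stood apart omitted, 2 rose, Ndufaf4 and Ndufa4, and 1 fell (18.3% of all probes). With the slide as a block the count was 2 (15.3% of all probes). Without replicate 1 of the normoxic group it was 2 (5.82%), and without replicate 2 it was 3 (9.89%).

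The hypoxia effect in this culture differed from that in WT for 3 members, in the test of the difference itself (3.30%, against 11.8% of all probes). Uqcrc1 (0.78 ± 0.21, SE, limma adjusted p = 0.0377) and Mrps11 (0.94 ± 0.27, adjusted p = 0.0499) differed upward, since they fell in WT and not in the mutant, and Cox7a2l downward (-1.97 ± 0.32, adjusted p = 0.00305). Sdhb had a difference of 0.82 that did not pass (adjusted p = 0.093). The calls of Uqcrc1 and Mrps11 were lost whichever of the 8 arrays was left out, and that of Cox7a2l was kept in all 8 cases. Without the array that stood apart, 5 passed (19.1% of all probes), and fitting only these groups called 13 (27.7%).

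In the mutant with 4-OHT, hypoxia changed 0 members, and only 0.0268% of all probes passed. At an unadjusted p under 0.05 it was 11 of 91 members, against 8.37% of all probes. The median member difference of 0.35 came from 1 array: it was 0.81 within slide 1, with 5 of 91 below 0, and -0.09 within slide 2, with 58 below 0. Without replicate 1 of the normoxic group it was -0.04, with 0 members and 0% of all probes called, and without replicate 2 the test called 47 members higher and 1 lower and 11.4% of all probes. Without replicate 2 of the hypoxic group it called 1, and 0.463% of all probes. The difference of the hypoxia effects with and without 4-OHT passed for Cox7a2l alone (5.17% of all probes, and it alone also without the array that stood apart, with 5.85%). Its median of 0.35 was -0.07 without that array, and 34 members were called higher without its partner (14.6% of all probes). Without replicate 2 of the hypoxic mutant with 4-OHT 4 passed (7.38% of all probes), and without replicate 2 of the normoxic mutant without it 2 (5.31%).

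The mutant with 4-OHT was then compared with WT in normoxia, the comparison in which most members passed. Of 91, 16 were lower and 1 higher (18.7%, against 22.8% of all probes, and 11.7% of all probes were lower). The median was -0.56, and 83 members were below 0. Within slide 1 the median was -1.03 and within slide 2 -0.15.

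Those lower were 5 of 12 probes of complex IV, 3 of 9 of the ATP synthase, 1 of 4 of complex III, 3 of 20 of complex I, 2 of 15 of the small and 1 of 19 of the large mitoribosomal subunit and 1 of 10 of assembly factors. With the array that stood apart left out, 2 of complex IV, 2 of the small subunit and 1 of the ATP synthase were lower. Among members that passed, Mrps11 fell most, at 7.30 and 7.62 in the mutant with 4-OHT, against 8.58 and 8.83 in WT (-1.25 ± 0.19, SE, limma adjusted p = 0.00131). Cox8a, the smallest kind of complex IV subunit, read 11.11 and 11.99, against 12.79 and 12.52 (-1.11 ± 0.25, adjusted p = 0.0111). Mrps21 (-1.17), Uqcr11 (-1.05) and the dimmer probe of Cox6a1 (-1.03) also fell. In each of these the groups did not overlap, but the 2 mutant arrays lay further apart than the 2 of WT.

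After removal of the array that stood apart, 5 members were lower and 3 higher (19.8% of all probes), and the median was -0.16. Mrps11 (-1.09, limma adjusted p = 0.00679), Mrps21 (-0.63), Cox8a (-0.67), Cox6a1 (-0.61) and Atp5h, of the stalk of the ATP synthase (-0.65), passed both with and without it, whereas all 3 called complex I probes were lost. Without the other array of that group 65 were called lower and 2 higher, with 35.7% of all probes called. The count was 2 without WT replicate 1 (9.24% of all probes) and 4 without WT replicate 2 (9.3%), and fitting these 2 groups alone called 1 (7.48%). Cox7a1, among the complex IV probes counted as lower, was detected on both WT arrays and neither mutant array. It was at least 1.20-fold lower in the mutant (limma adjusted p = 0.0482), a call lost without the array that stood apart. The detection filter kept Cox7a1 only through these 2 WT arrays, the group in which it was high. Its p-value is therefore not independent of its selection.

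**Figure D3:**
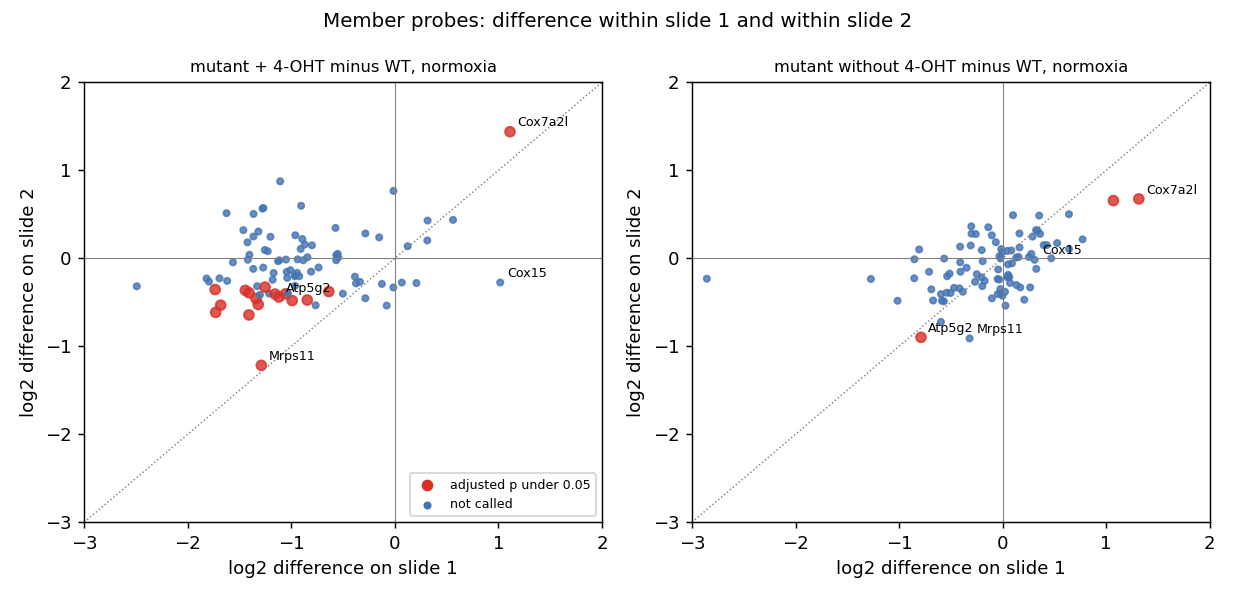
Log2 difference of each of the 91 member probes within slide 1 (horizontal) and within slide 2 (vertical), for the mutant with 4-OHT minus WT in normoxia (left) and the mutant without 4-OHT minus WT in normoxia (right). Red points had an adjusted p under 0.05 and the dotted line marks equal values. On the left the members' median is -1.03 on slide 1 and -0.15 on slide 2, and on the right it is -0.03 and -0.12.

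The effect of 4-OHT itself in normoxic mutant cultures was 1 member lower and 0 higher (1 of 91, against 5.98% of all probes). Cox5b, a nuclear subunit of complex IV, read 11.74 and 12.02 with 4-OHT, against 12.84 and 12.50 without (-0.79 ± 0.18, SE, limma adjusted p = 0.0299). Once the array that stood apart was omitted it was at -0.66 (adjusted p = 0.0746), so that 0 of 91 passed, against 5.29% of all probes. Its second probe had -0.83 and did not pass. The median member difference was -0.44, made up of -0.91 within slide 1 and 0.03 within slide 2. Without the other array of the 4-OHT group 54 were called lower and 1 higher, with 19.9% of all probes called. With the slide as a block 3 passed (8.96% of all probes). Without replicate 1 of the mutant without 4-OHT 0 did (0.329%), and without its replicate 2, 2 did (3.45%).

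In hypoxia, where the array that stood apart is in neither group, 4-OHT was compared in the mutant. The 2 arrays with 4-OHT differed by a median of 0.29 over the members, and those without by 0.13. Of 91 members 6 were lower and 2 higher with 4-OHT (8.79%, against 28.6% of all probes). Uqcrc1 read 10.58 and 10.69 with 4-OHT, against 11.36 and 11.34 without (-0.71 ± 0.15, SE, limma adjusted p = 0.00488), and stayed called whichever of the 4 arrays was left out. Mrpl12, which in mammals also binds the mitochondrial RNA polymerase, read 9.68 and 9.74, against 10.41 and 10.65 (-0.82 ± 0.23, adjusted p = 0.0197). The call of Mrpl12 was lost whichever of the 4 arrays was left out. The groups did not overlap for Uqcrc1 or Mrpl12.

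Mrpl33 (-0.72), Ndufaf4 (-0.64), Mrps11 (-0.60) and Cox5b (-0.56) were the others lower. With 1 of the compared arrays left out, the calls of Mrpl33 and Mrps11 were lost in every case. Those of Ndufaf4 and Atp5g2 were lost in most cases. Atp5g2, one of the genes for the proton-carrying ring of the ATP synthase, was higher, at 10.44 and 10.19 with 4-OHT against 9.53 and 9.57 without (0.76 ± 0.21, SE, limma adjusted p = 0.0205). When the array that stood apart was omitted 14 were lower and 6 higher (36.9% of all probes). Leaving out 1 hypoxic array without 4-OHT gave 2 calls in each case (15.9% and 16.1% of all probes), and replicate 1 with 4-OHT 3 (21%).

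Of the other mitochondrial genes, 5 of 28 probes of the biogenesis and assembly list were lower with 4-OHT in hypoxia and 0 higher, where 28.6% of all probes passed. They were Tomm22, of the import pore of the outer membrane (-1.25), Ecsit, a complex I assembly factor (-1.06), Ttc19, of complex III assembly (-0.84), Cycs (-0.68) and the coactivator Ppargc1b (-0.48). In normoxia 3 were lower and 0 higher, against 5.98% of all probes: Cycs, Tomm22 and Slc25a5. Tomm22 was also lower in the mutant with 4-OHT than in WT, by -1.93 in normoxia and -0.97 in hypoxia. Of the list, 2 were higher and 2 lower there in normoxia (22.8% of all probes passed), and 1 higher and 2 lower in hypoxia (12.7%). In the normoxic mutant without 4-OHT 3 of the 28 were higher than in WT and 1 lower (14.3% of all probes). Tomm22 was lower (-1.16), whereas Cycs (1.27), Slc25a5 (1.18) and Ttc19 (0.75) were higher. Hypoxia lowered Tomm22 in WT (-0.71) and raised it in the mutant without 4-OHT (0.73). With 4-OHT in hypoxia 1 citric acid cycle probe of 7 passed, Ogdh (-1.04), a subunit of the oxoglutarate dehydrogenase.

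The mutant with 4-OHT compared with WT in hypoxia had 1 member higher, Cox7a2l, and 0 lower (1 of 91, against 12.7% of all probes). The median was -0.08, against -0.05 for all probes. Without the array that stood apart, which is in neither group, 2 were higher and 2 lower (17.7% of all probes), and 2 were called with the slide as a block (15.2%). Leaving out replicate 2 of the mutant gave 4 (11.8%).

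The mutant without 4-OHT and WT were compared for the effect of the genotype as labelled. In normoxia 2 members were higher and 1 lower (3.30%, against 14.3% of all probes). Mrps10, of the small mitoribosomal subunit, read 9.09 and 8.59 in the mutant, against 8.02 and 7.94 in WT (0.86 ± 0.20, SE, limma adjusted p = 0.0157), and Cox7a2l was the other higher. Atp5g2 read 9.96 and 9.84, against 10.75 and 10.74 (-0.84 ± 0.21, adjusted p = 0.0221). After removal of the array that stood apart 2 were higher and 6 lower (22% of all probes), and with the slide as a block 5 passed (18%). Leaving out either WT array or replicate 1 of the mutant left 0 members, and 6.2% to 7.73% of all probes.

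In hypoxia 2 were higher and 3 lower (5.49%, against 24.8% of all probes). Uqcrc1 read 11.36 and 11.34 in the mutant, against 10.51 and 10.49 in WT (0.85 ± 0.15, SE, limma adjusted p = 0.00235). Atp5g2 read 9.53 and 9.57, against 10.70 and 10.67 (-1.14 ± 0.21, adjusted p = 0.0032). The calls of both held whichever of the 4 arrays was left out. Sdhb was also higher (0.85, adjusted p = 0.012), and Mrps23, of the small mitoribosomal subunit, lower (-0.64, adjusted p = 0.0319). The call of Mrps23 was lost whichever of the 4 arrays was left out, and that of Sdhb was kept in 2 of the 4 cases.

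With the array that stood apart omitted, 8 were higher and 9 lower (33.6% of all probes), and fitting the 2 groups alone called 29 (45.1%). Leaving out replicate 1 of either group left 2 calls, and replicate 2 of either 3, with 11.6% to 13.7% of all probes. Of the 28 biogenesis and assembly probes 6 were higher and 1 lower (24.8% of all probes passed with all arrays), with Cycs at 1.38, Ttc19 at 0.94 and Ecsit at 0.93, and Ogdh of the citric acid cycle was at 1.50.

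**Figure D4:**
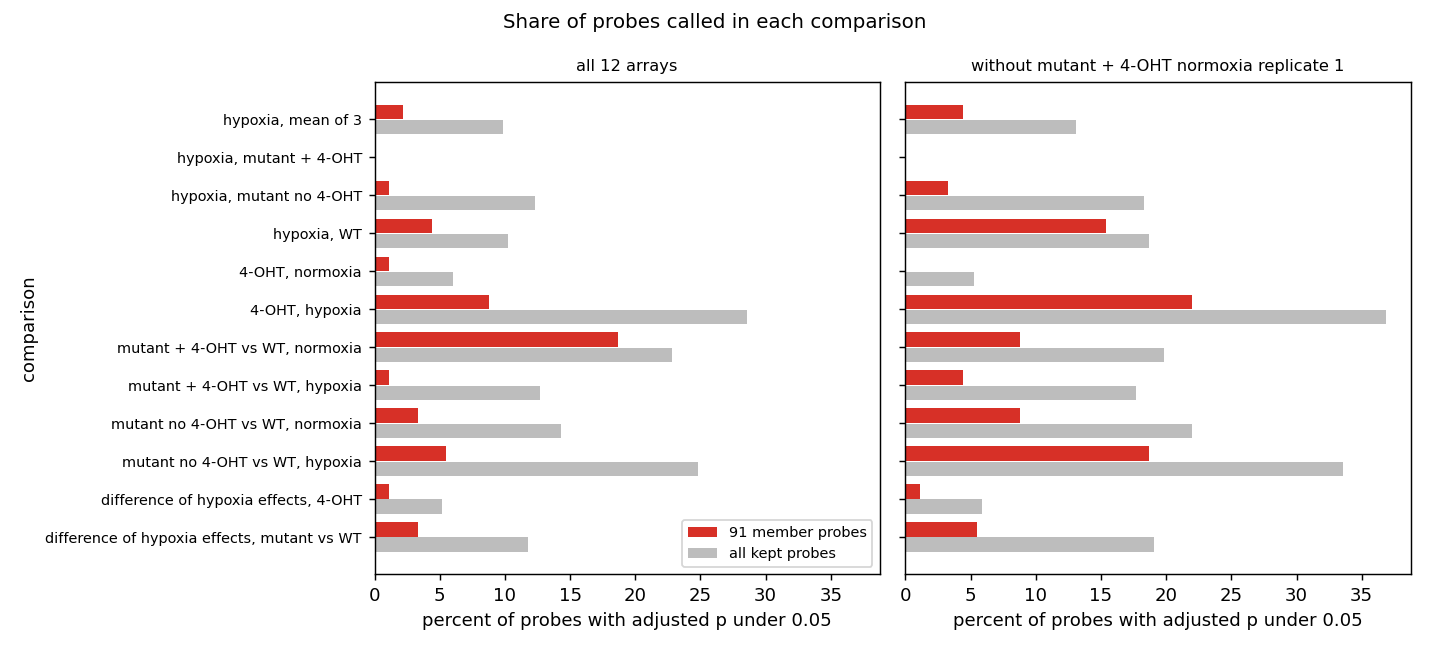
Percent of the 91 member probes (red) and of the 14900 kept probes (grey) with an adjusted p under 0.05 in each of 12 comparisons, with all 12 arrays (left) and without replicate 1 of the normoxic mutant with 4-OHT (right). With all arrays the largest member share is 18.7%, for the mutant with 4-OHT against WT in normoxia, where 22.8% of all probes passed; without the array that stood apart it is 8.79% there.

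Cox7a2l, which binds respiratory complexes together into supercomplexes, passed in 8 of the 12 comparisons and had the largest differences among members that passed. Its values were 10.77 and 10.43 in the hypoxic and 10.13 and 10.73 in the normoxic mutant with 4-OHT, and 8.36 and 8.43 in the hypoxic and 10.33 and 9.97 in the normoxic mutant without 4-OHT. In WT they were 9.38 and 9.37 in hypoxia and 9.02 and 9.29 in normoxia. It was high in 3 of the 4 mutant groups, lowest in the hypoxic mutant without 4-OHT and between them in WT, with no overlap between these 3 levels.

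With 4-OHT in hypoxia it was higher by 2.20 ± 0.23 (SE, limma adjusted p = 5.36e-05), the largest member difference called. Against WT it was higher by 1.28 in normoxia and 1.22 in hypoxia in the mutant with 4-OHT. In the mutant without 4-OHT it was higher than in WT by 0.99 in normoxia (adjusted p = 0.0144) and lower by -0.98 in hypoxia (adjusted p = 0.0107). The difference between the hypoxia effects with and without 4-OHT was 1.92 ± 0.32 (adjusted p = 0.0051). It kept its call in every case with 1 array left out in 6 of these 8 comparisons, but not in those of the mutant without 4-OHT with WT (1 of 4 cases in normoxia and 0 of 4 in hypoxia).

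The 6 arrays on which Cox7a2l was highest were those on which all 6 muscle marker genes were detected. Chrng, the fetal subunit of the muscle acetylcholine receptor, read 10.62 to 11.38 on those 6 arrays, against 4.27 to 4.36 on the other 6. Other markers split less sharply. Flnc read 9.38 and 9.35 in the hypoxic mutant without 4-OHT, against 6.45 and 6.77 in hypoxic WT. Eno3 read 7.91 and 7.90, against 6.95 and 7.02, whereas Cox7a2l was lower there than in WT. Cox7a1, the isoform of heart and skeletal muscle, was not detected on those 6 arrays. All 8 kept probes of the 6 muscle genes passed as higher with 4-OHT in hypoxia, where 28.6% of all probes passed. The median deviation of the 8 lay between 1.68 and 2.03 on the 6 arrays and between -2.67 and -1.54 on the others. The part of muscle-type RNA in the Cox7a2l result was not tested.

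**Figure D5:**
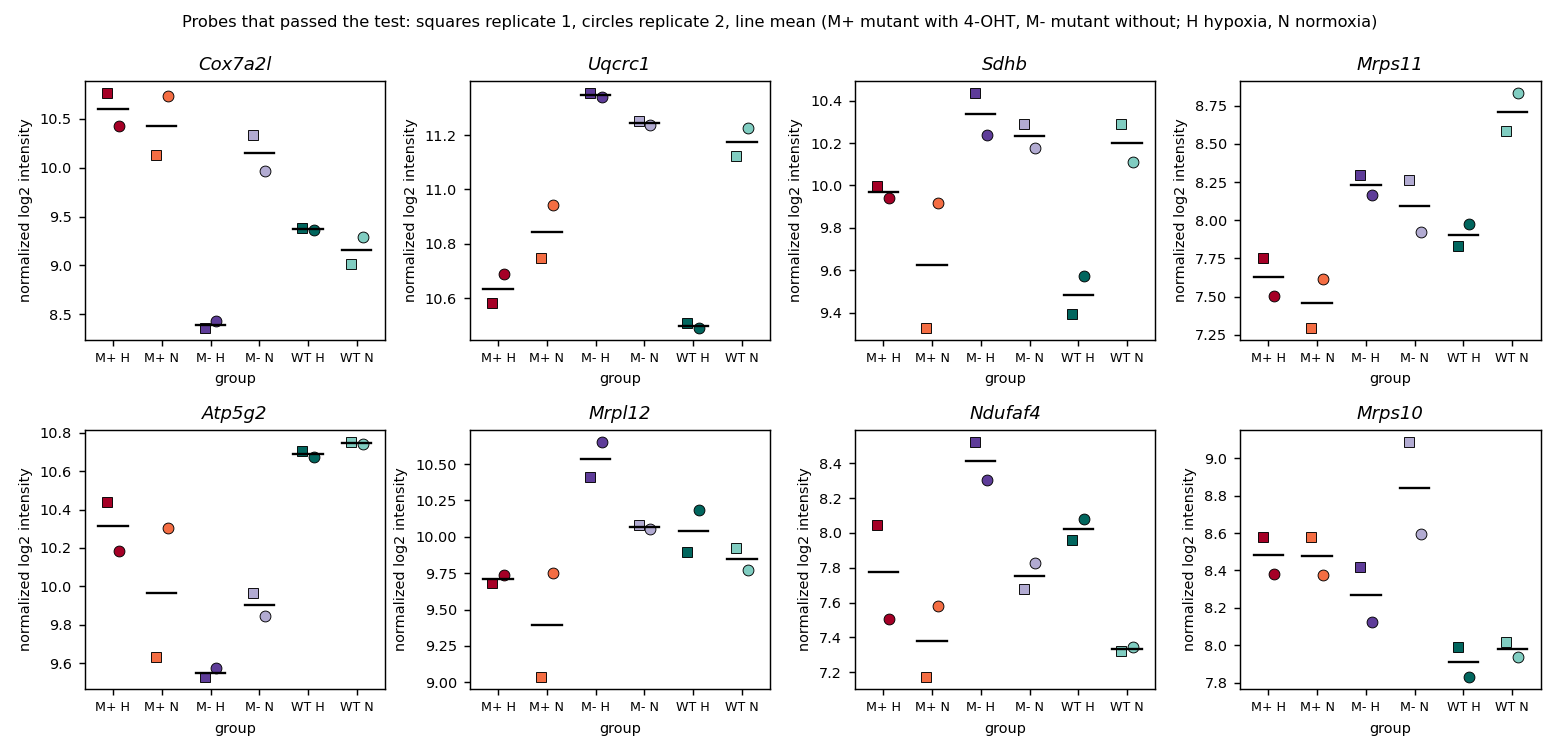
Normalized log2 intensity (vertical axes, which do not start at 0) of 8 member probes that passed in at least 1 comparison, by group (horizontal axes). Squares are replicate 1, circles replicate 2 and lines group means. Cox7a2l lies at 8.36 and 8.43 in the hypoxic mutant without 4-OHT and at 9.97 or above in the other 3 mutant groups, and Uqcrc1 at 10.51 and 10.49 in hypoxic WT against 11.12 and 11.23 in normoxic WT.

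Uqcrc1 varied between groups with little spread within them. It was highest in the mutant without 4-OHT (11.36 and 11.34 in hypoxia, 11.25 and 11.24 in normoxia) and in normoxic WT (11.12 and 11.23). It was lower in the mutant with 4-OHT (10.58 and 10.69 in hypoxia, 10.75 and 10.94 in normoxia) and in hypoxic WT (10.51 and 10.49). In the mutant with 4-OHT the hypoxic arrays lay below the normoxic ones without overlap, but the difference of -0.21 did not pass (limma adjusted p = 0.701).

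Sdhb had a like order, with 10.44 and 10.24 in the hypoxic and 10.29 and 10.18 in the normoxic mutant without 4-OHT and the lowest values in hypoxic WT, apart from 9.33 on the array that stood apart. Atp5g2 kept another: all 4 WT arrays (10.67 to 10.75) lay above all 8 mutant arrays (9.53 to 10.44), in hypoxia and in normoxia. Atp5g2 is 1 of several genes for the same ring protein, and Atp5g1, the other with a probe here, passed in none of the 12 comparisons.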

How the data were processed

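Total RNA was amplified, biotin labelled and hybridised to Illumina Mouse-6 v1.1 BeadChips. The authors deposited mean bead intensity per probe, not background subtracted, and a detection p-value against negative control beads, and separately intensities they had background subtracted and cubic-spline normalized. The deposited intensity columns were processed with limma 3.58.1 (R 4.3.3): neqc with the background estimated from detection p-values (5 bright probes with p-values below the regular step set to 0 for the estimate), offset 16, quantile normalization and log2. A probe was kept when its detection p lay under 0.01 on any array, and 42 control probes were left out. One linear model held all 6 groups (lmFit, eBayes, 6 residual degrees of freedom), with Benjamini-Hochberg adjustment over 14900 probes and a threshold of 0.05. "At least" folds set an undetected probe at the weakest detected signal. The number of arrays limits the precision.

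Members and lists were chosen with earlier results of these data known. Named are the 10 largest changes each way for hypoxia over all cultures, the 5 largest each way without overlap in each other comparison, tissue or hypoxia isoforms, complex II subunits and examples of roles. Other names were chosen after their values were seen. Alternatives were no background correction, all detection p-values, median scaling, the authors' values, 2 other filters, the compared groups alone, the slide as replicate block, and leaving out each array. Same-numbered arrays shared a slide per the labels, and their deviations from group means correlated at -0.22 to 0.60 (median 0.20, over 0.1 in 12 of 15 pairs of groups). The fit was also run on simulated data for the mutant with 4-OHT against WT in normoxia (14900 probes, 85 called). No other group difference was simulated, and the noise was alike on all arrays. Changes of 0.5, 1 and 2 on the log2 scale were recovered in 0%, 31.3% and 90.9% of cases. With the real arrays 22.8% of all probes passed, so these shares do not give the power of that test. Python 3.11.15, pandas 2.3.3 and matplotlib 3.10.9 were used.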

Additional observations from a re-analysis of the deposited data

Results flagged for a closer look

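Hypoxia effects that differed between cultures, by the test of the difference itself in limma, were found for 3 members. Cox7a2l differed by 1.92 between the mutant with and without 4-OHT, and by -1.97 between the mutant without 4-OHT and WT. Between the mutant without 4-OHT and WT, Uqcrc1 differed by 0.78 and Mrps11 by 0.94. The calls of Uqcrc1 and Mrps11 were lost when any 1 of the 8 arrays compared was left out.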

How the results depend on the processing

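Counts of members called moved with single arrays and with the groups that shared the fit. With 1 array left out at a time, including, as added after seeing the data, the array that stood apart in comparisons that do not hold it, the counts ranged from 0 to 35 for hypoxia over all cultures, 0 to 48 in the mutant with 4-OHT, 1 to 3 in the mutant without it and 0 to 14 in WT. They ranged from 0 to 55 for 4-OHT in normoxia and 2 to 20 in hypoxia, from 2 to 67 for the mutant with 4-OHT against WT in normoxia and 1 to 4 in hypoxia, and from 0 to 8 for the mutant without 4-OHT against WT in normoxia and 2 to 17 in hypoxia. For the differences of hypoxia effects they were 1 to 34 (4-OHT) and 1 to 5 (mutant without 4-OHT against WT). The cause was not tested.

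With all detection p-values 2 were called for hypoxia in the mutant without 4-OHT, 2 for hypoxia in WT, 2 for 4-OHT in normoxia and 9 for the mutant with 4-OHT against WT in normoxia. Without a filter the counts were 1 for hypoxia in WT, 2 and 3 for 4-OHT in normoxia and hypoxia, and 7 for the mutant with 4-OHT against WT in normoxia. Median scaling gave 2 for hypoxia in WT and 1 for the difference of hypoxia effects between the mutant without 4-OHT and WT, and no background correction gave 2 for 4-OHT in normoxia. Fitting only the groups compared, with fewer samples, gave 2 and 24 for hypoxia in the mutant without 4-OHT and in WT, 0 for 4-OHT in normoxia, 1 for the mutant with 4-OHT against WT in normoxia, 8 and 29 for the mutant without 4-OHT against WT in normoxia and hypoxia, and 13 for the difference of hypoxia effects against WT. The replicate block, which pairs arrays by slide, gave 2 for hypoxia in the mutant without 4-OHT, 3 for 4-OHT in normoxia, 2 for the mutant with 4-OHT against WT in hypoxia and 5 for the mutant without 4-OHT against WT in normoxia, and left the other counts within 1.5 times. No named member reversed its direction: 333 values kept their side of the threshold and 129 lost the call. Calls were lost more often with 1 array left out than under the other alternatives. These members were named because they had passed, so a call could be lost but not gained. The 2 arrays per group limit what could be detected.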
